A study of Mus musculus with 40 samples.

Results

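*Cdx2*, *Eomes*, *Gata3*, *Elf5*, *Hand1* and *Tfap2c*, which encode transcription factors of the trophectoderm, and *Krt8*, *Krt18*, *Krt19* and *Krt7*, which encode the keratins of simple epithelia, were followed in mouse embryonic stem cells (mESCs) without Cyclin C or CDK8. These 10 genes were chosen by name, with earlier results of these data known, out of 55536 genes in the count tables. RNA was taken from WT mESCs (2 biological replicates), from *Ccnc* KO mESCs (clones D1, G2 and H5) and from *Cdk8* KO mESCs (clones B9, H4 and C8). Each culture received DMSO, the solvent, or AZD6738 at 900 nM for 4 h. AZD6738 blocks the kinase ATR and is called ATRi here. Each knockout line is a single clone made with CRISPR-Cas9, and the cells were grown in serum with LIF on gelatin. The *Ccnc* KO libraries and the *Cdk8* KO libraries were sequenced in separate multiplexes of 10 libraries, each with its own sequencing of the same 4 WT libraries. The tests took each library as a replicate, so that the DMSO and ATRi libraries of a clone entered separately. Fits that sum the libraries of a clone, so that it counts once, or that treat the clone as a random block are given beside the calls.

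The trophectoderm is the outer epithelium of the blastocyst and gives rise to the placenta. CDX2, GATA3, TFAP2C, EOMES and ELF5 act early in it and in trophoblast stem cells, and HAND1 acts as giant cells form. Keratins assemble as pairs of a type II protein (KRT8, KRT7) and a type I protein (KRT18, KRT19), and KRT8 with KRT18 is the first keratin pair of the embryo. Simple keratins are also made in the primitive endoderm and in many other epithelia, so that they mark epithelium rather than trophectoderm alone, and mESCs seldom enter the trophoblast.

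*Krt8* and *Krt18* are neighbours. On GRCm38, *Krt8* lies at chr15:101996698-102004482 on the minus strand and *Krt18* at chr15:102028180-102032027 on the plus strand, with 23697 bases and 0 annotated genes between them. *Krt7* lies at chr15:101411043-101430313 (plus strand), in the same keratin cluster and 566384 bases from *Krt8*. *Krt19* lies in the type I cluster at chr11:100140810-100148665 (minus strand). The transcription factor genes lie elsewhere: *Gata3* at chr2:9857078-9890034 (minus), *Elf5* at chr2:103411688-103450989 (plus), *Tfap2c* at chr2:172549593-172558622 (plus), *Cdx2* at chr5:147300805-147307270 (minus), *Eomes* at chr9:118478212-118486132 (plus) and *Hand1* at chr11:57828705-57832818 (minus).

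Since the keratins moved together, the stretches upstream of *Krt8*, *Krt18* and *Krt7* are shown, from the RefSeq promoter windows of GRCm38.p6 (250 bases before to 50 bases after the start), which held 7 of the 10 genes (not *Hand1*, *Krt19* and *Tfap2c*). Bases annotated as untranslated region are left out, apart from 30 bases of *Krt8* that RefSeq places around the start and GENCODE places inside the transcript. Capitals mark matches, on either strand, to short letters that general knowledge ties to a factor, each spelled out after the sequences. The *Krt7* stretch lies inside the gene as GENCODE draws it, downstream of the first start annotated there, and in part overlaps an exon of another *Krt7* transcript. At the start of *Krt8* a further match to TATAAA, on the other strand, begins 2 bases before the capitals, which mark the match on the strand shown. In *Krt7* a GGGCGG match overlaps a GCCNNNGGC match.
Krt8 upstream, chr15:102004483-102004592, minus strand: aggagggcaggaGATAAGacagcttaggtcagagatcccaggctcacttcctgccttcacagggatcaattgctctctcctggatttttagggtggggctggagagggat
Krt8 at the start, chr15:102004326-102004355, minus strand: ggcctcttctttTATAAAgggccttcgctg
Krt18 upstream, chr15:102027966-102028179, plus strand: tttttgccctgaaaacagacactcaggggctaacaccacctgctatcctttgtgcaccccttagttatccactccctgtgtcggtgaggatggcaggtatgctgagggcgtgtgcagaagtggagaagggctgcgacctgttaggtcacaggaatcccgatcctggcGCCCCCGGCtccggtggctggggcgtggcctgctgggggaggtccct
Krt7 upstream, chr15:101412153-101412401, plus strand: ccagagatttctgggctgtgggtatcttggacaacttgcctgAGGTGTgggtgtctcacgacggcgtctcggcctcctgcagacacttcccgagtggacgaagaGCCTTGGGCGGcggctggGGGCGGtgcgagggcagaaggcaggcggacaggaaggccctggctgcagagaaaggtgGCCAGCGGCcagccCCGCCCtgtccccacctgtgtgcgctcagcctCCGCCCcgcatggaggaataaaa

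None of the motifs searched was found in all 3 keratin windows. GCCNNNGGC, bound by the AP-2 family to which TFAP2C belongs, was in the *Krt18* and *Krt7* windows and in 16.6% of the 32851 promoter windows of the same length. The letters GATAAG of GATA factors were in the *Krt8* window, 238 bases before the start, and in 7.44% of all windows. TATAAA, the TATA box, was in the *Krt8* window and in 13.6% of all. The GC box GGGCGG, bound by SP1, was in the *Krt7* window, at 4 places, and in 35.7% of all. AGGTGT, bound by T-box factors as EOMES, was in the *Krt7* window and in 13.7% of all. The letters TGANTCA of AP-1 (7.81% of all windows) were in none of the 3. The same holds for the TEAD letters GGAATG (14.7%). The letters TTTATG of CDX factors (11.9%) and the CArG box of SRF (1.63%) were also in none. A match is a description of the letters and shows no binding.

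Reads on genes numbered between 30899823 and 67274049 per library, with a median of 41972557. Levels are given as CPM, counts scaled to a common library size with the TMM factors of edgeR. *Ccnc* RNA lay at 4.24 to 7.40 CPM in the *Ccnc* KO libraries and at 39.6 to 45.1 CPM in the WT libraries beside them. *Cdk8* RNA lay at 52.3 to 64.6 CPM in *Cdk8* KO libraries and at 57.7 to 78.6 CPM in WT libraries, so that the level of this RNA does not by itself check these labels. The ATRi library of the second WT replicate stood above the other WT libraries in all 4 keratins in both multiplexes. It was left out of the tests, and its values are printed with the others.

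Of the 10 genes, *Krt8*, *Krt18*, *Krt19* and *Krt7* rose in *Ccnc* KO cells in the main test, by 2.77-fold to 4.49-fold. *Elf5* also rose there, by 6.36-fold, from very few counts. *Gata3* alone was called raised in *Cdk8* KO cells, by 3.56-fold, a call that several other fits lost. The keratins reached their highest levels in the *Cdk8* KO clones, with fitted folds of 8.34 to 11.3, but the clones differed by 7.41 to 14.3 times under DMSO and none of the 4 passed the test there. *Cdx2*, *Hand1* and *Tfap2c* did not pass in either knockout. A call needed an adjusted p (Benjamini-Hochberg over all genes tested) under 0.05 in edgeR's quasi-likelihood test and a fold change above 2 or below 0.5. In *Ccnc* KO against WT, 5 of 10 members tested were called raised, where 1.62% of all 18577 genes tested were, and 0 were called lowered, where 0.318% were. In *Cdk8* KO against WT, 1 of 9 members tested was called raised, where 0.908% of all 18721 genes tested were, and 0 were called lowered, where 0.144% were. Since the members were chosen with earlier results of these data known, these shares are a description and no test of the set. A random block for the clone, fitted in limma, keeps the libraries of the main test separate and uses a common correlation within clones for all genes. It called 4 of 10 members raised in *Ccnc* KO, where 236 of all 18577 genes were. It called 0 of 9 in *Cdk8* KO, where 50 of all 18721 genes were. With the libraries of each clone summed, 5 of 10 were called in *Ccnc* KO (236 of all 18917 genes). That fit has no treatment term, and WT replicate 2 enters it with its DMSO library alone. The summed fit called 0 of 9 in *Cdk8* KO (2 of all 19123 genes). *Elf5* did not pass the filter on low counts in the *Cdk8* multiplex, nor in the *Ccnc* multiplex without clone H5. In the main *Ccnc* KO fit it was tested only through H5, a clone in which it is high.

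**Figure D1:**
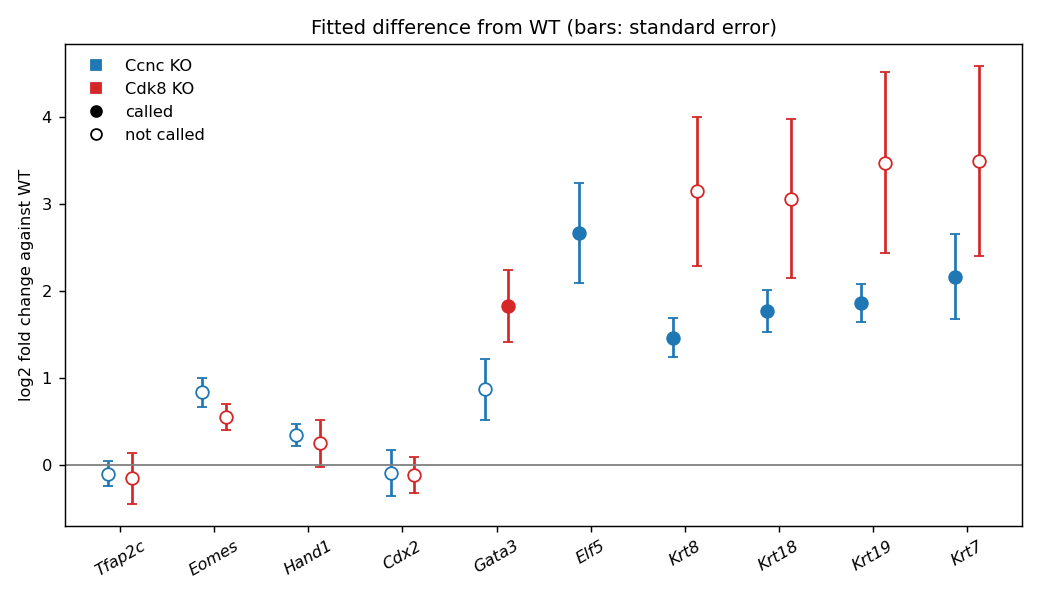
Fitted log2 fold change against WT (vertical axis) with its standard error for each gene (horizontal axis), in *Ccnc* KO (blue) and *Cdk8* KO (red), where filled points were called (adjusted p and fold) and open points were not. The 4 keratins are higher in the fit for *Cdk8* KO than for *Ccnc* KO and have much wider bars there.

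*Krt8* encodes the type II keratin of simple epithelia. In the *Ccnc* multiplex, *Krt8* was at 7.21 and 7.70 CPM (DMSO and ATRi) in WT replicate 1, 8.19 and 9.61 in WT replicate 2, 14.7 and 18.2 in D1, 16.4 and 18.2 in G2, and 29.6 and 31.4 in H5. Every *Ccnc* KO library lay above every WT library, and H5 lay above D1 and G2. *Krt8* rose 2.77-fold in *Ccnc* KO (log2 fold change 1.47, SE 0.23, adjusted p = 0.00073 by edgeR). In the *Cdk8* multiplex, *Krt8* was at 7.18 and 6.93 CPM in WT replicate 1, 6.63 and 9.47 in WT replicate 2, 18.0 and 16.6 in B9, 30.7 and 30.6 in C8, and 134 and 139.8 in H4. All *Cdk8* KO libraries again lay above all WT libraries, and the clones stood far apart from each other, with H4 at 7.41 times B9 under DMSO. The fitted log2 difference was 3.14 (SE 0.86, adjusted p = 0.068), which did not pass.

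*Krt18* encodes the type I partner of KRT8. For the libraries of the *Ccnc* multiplex, *Krt18* was at 5.47 and 5.21 CPM in WT replicate 1, 5.14 and 8.61 in WT replicate 2, 13.6 and 14.4 in D1, 14.5 and 12.7 in G2, and 27.1 and 24.2 in H5. The groups did not overlap, and *Krt18* rose 3.42-fold in *Ccnc* KO (log2 1.77, SE 0.24, adjusted p = 0.00027 by edgeR). For the libraries of the *Cdk8* multiplex, *Krt18* was at 5.12 and 5.23 CPM in WT replicate 1, 6.23 and 9.69 in WT replicate 2, 10.6 and 10.8 in B9, 23.4 and 22.6 in C8, and 103 and 106 in H4. B9 lay just above the highest WT library, and H4 was at 9.66 times B9 under DMSO. The fitted log2 difference in *Cdk8* KO was 3.06 (SE 0.91, adjusted p = 0.089) and did not pass.

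*Krt19* encodes a further type I keratin of simple epithelia, found in trophectoderm and in many ducts. In the *Ccnc* multiplex, *Krt19* was at 1.89 and 2.15 CPM in WT replicate 1, 2.57 and 5.28 in WT replicate 2, 8.10 and 6.80 in D1, 7.0 and 4.71 in G2, and 10.2 and 10.1 in H5. WT replicate 2 under ATRi overlapped with G2 under ATRi, and the other WT libraries lay below all *Ccnc* KO libraries. *Krt19* rose 3.64-fold in *Ccnc* KO (log2 1.86, SE 0.22, adjusted p = 9.4e-05 by edgeR). In the *Cdk8* multiplex, *Krt19* was at 2.48 and 2.31 CPM in WT replicate 1, 3.01 and 4.34 in WT replicate 2, 4.65 and 4.75 in B9, 15.1 and 14.6 in C8, and 66.5 and 66.0 in H4. B9 was close to the highest WT library, and H4 was at 14.3 times B9 under DMSO. The fitted log2 difference in *Cdk8* KO was 3.47 (SE 1.04, adjusted p = 0.091) and did not pass.

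*Krt7* encodes a type II keratin of simple epithelia and was the lowest of the 4. Within the *Ccnc* multiplex, *Krt7* was at 0.323 and 0.375 CPM in WT replicate 1, 0.359 and 0.556 in WT replicate 2, 0.920 and 1.74 in D1, 0.729 and 0.766 in G2, and 2.54 and 3.05 in H5. The groups did not overlap, and *Krt7* rose 4.49-fold in *Ccnc* KO (log2 2.17, SE 0.49, adjusted p = 0.0096 by edgeR). The call was lost with the clone as a random block, at an adjusted p = 0.052. Within the *Cdk8* multiplex, *Krt7* was at 0.330 and 0.276 CPM in WT replicate 1, 0.486 and 0.907 in WT replicate 2, 0.700 and 0.996 in B9, 1.88 and 1.66 in C8, and 9.39 and 9.77 in H4. WT replicate 2 under ATRi overlapped with B9, and H4 was at 13.4 times B9 under DMSO. The fitted log2 difference in *Cdk8* KO was 3.50 (SE 1.09, adjusted p = 0.10) and did not pass.

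**Figure D2:**
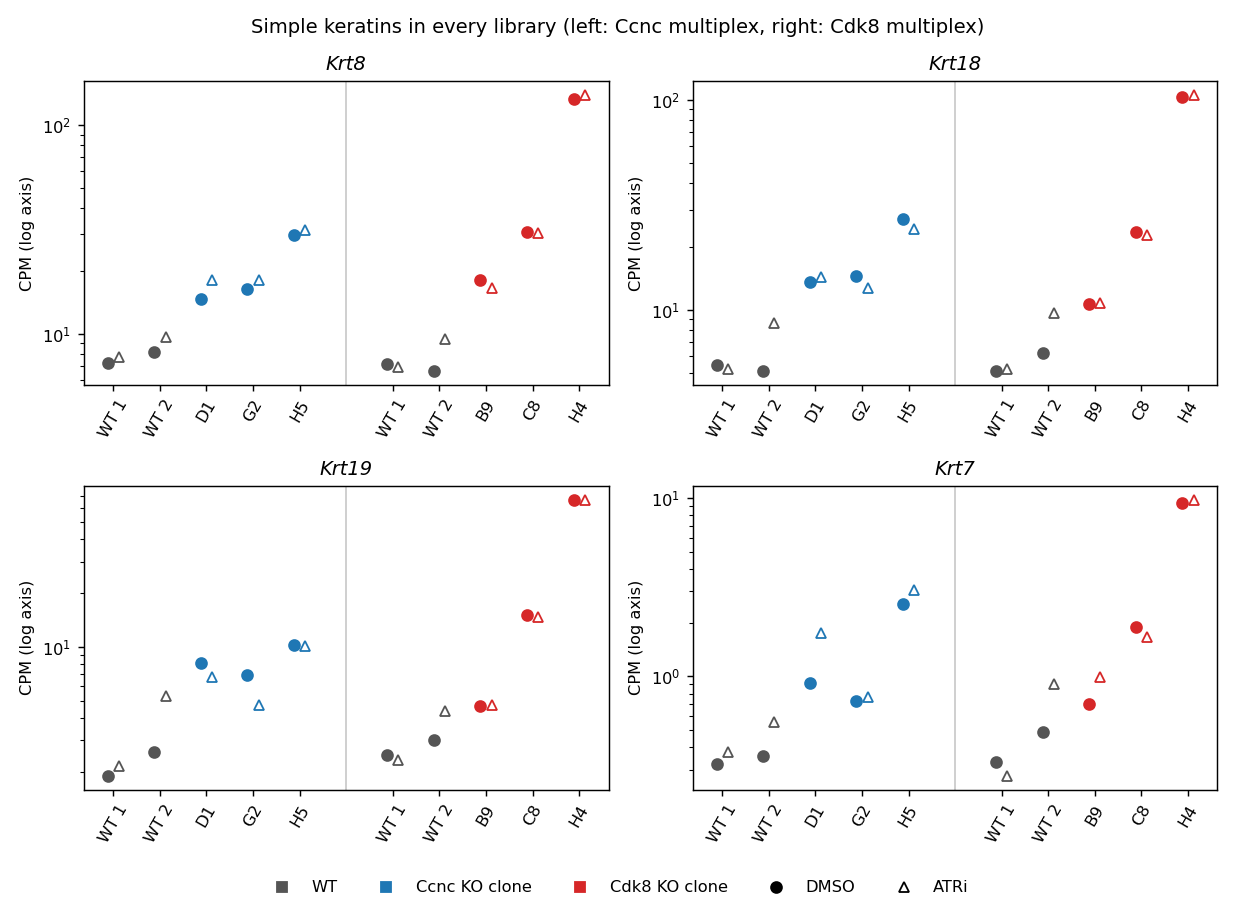
CPM on a log axis for the 4 keratins in every library, by WT replicate and clone, with WT in grey, *Ccnc* KO in blue and *Cdk8* KO in red, DMSO as filled circles and ATRi as open triangles. The treatments are close within most clones, *Krt7* in D1 apart, while the *Cdk8* KO clones run from B9 through C8 to H4, where *Krt8* reached 139.8 CPM.

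The order of the *Cdk8* KO clones, H4 above C8 above B9, was the same for all 4 keratins under both treatments. In the *Ccnc* KO clones H5 was highest for all 4 keratins under both treatments, and D1 and G2 changed places between genes. Under DMSO the highest clone was at 1.46 to 3.48 times the lowest in *Ccnc* KO and at 7.41 to 14.3 times the lowest in *Cdk8* KO. Without H4 the *Cdk8* KO difference was smaller and passed the test for all 4 keratins, with a log2 fold change of 1.79 for *Krt8* (SE 0.23, adjusted p = 0.0022), 1.62 for *Krt18* (SE 0.30, adjusted p = 0.012), 1.92 for *Krt19* (SE 0.46, adjusted p = 0.032) and 1.86 for *Krt7* (SE 0.41, adjusted p = 0.024), all by edgeR. That fit called 5 of 9 members raised, where 1.13% of all 18586 genes were. It rests on clones B9 and C8 alone, with their DMSO and ATRi libraries as separate replicates. Its standard errors therefore mix the spread between clones with the spread within them. Each clone was left out in turn, and H4 is singled out here because of its values. Leaving out B9 in place of H4 also gave 5 calls, where 398 of all 18327 genes were called raised. Leaving out C8 gave 0 calls, where 76 of all 18507 genes were called raised. DESeq2 called 5 of 10 members raised on all libraries of that comparison (the 4 keratins and *Gata3*), where 1.73% of the 17097 genes with an adjusted p were. Summing the libraries of each clone called 0 of 9 members, where only 2 of all 19123 genes were called raised. The random block called 0 of 9, where 50 of all 18721 genes were. The adjusted p-values for *Krt8* in these fits were 0.25 and 0.29. With so few calls over all genes, these counts are not a result about the members alone. In *Ccnc* KO, DESeq2 called the 4 keratins, where 1.55% of the 16951 genes with an adjusted p were called raised, and gave *Elf5* no adjusted p. Leaving out WT replicate 1 leaves a single WT library in the *Ccnc* KO fit, which called fewer members and fewer of all genes.

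In groups that use the libraries of the tests, every knockout library lay above every WT library for 6 of 10 members in *Ccnc* KO (the 4 keratins, *Elf5* and *Eomes*), where 7.53% of all genes tested did, and for 6 of 9 in *Cdk8* KO (the 4 keratins, *Gata3* and *Eomes*), where 6.59% did. With WT replicate 2 under ATRi included the counts were 4 and 3, where 5.11% and 4.79% of all genes did. No member lay below WT in every knockout library in either setting. *Elf5* was among the genes compared only through clone H5, in which it is high.

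Levels per length put the keratins in order. Under DMSO, CPM per kilobase of exon in WT libraries of the *Ccnc* multiplex was 3.93 ± 0.35 for *Krt8*, 3.69 ± 0.16 for *Krt18*, 1.20 ± 0.26 for *Krt19* and 0.048 ± 0.0037 for *Krt7* (SD, n = 2). *Krt8* and *Krt18* did not differ beyond their spread, and *Krt19* and *Krt7* lay below them and apart from each other. In *Ccnc* KO the levels were 10.3 ± 4.2 for *Krt8*, 12.8 ± 5.3 for *Krt18*, 4.55 ± 0.88 for *Krt19* and 0.20 ± 0.14 for *Krt7* (SD, n = 3). In *Cdk8* KO they were 31.0 ± 32.4 for *Krt8*, 31.7 ± 34.7 for *Krt18*, 15.5 ± 17.8 for *Krt19* and 0.57 ± 0.67 for *Krt7* (SD, n = 3), so that the SD was as large as the mean or larger. The ratio of *Krt8* to *Krt18* per length had a median of 1.03 in WT (range 0.819 to 1.17) and 0.880 in *Ccnc* KO (0.793 to 1.05) in the *Ccnc* multiplex, and 0.877 in WT (0.717 to 1.03) and 0.982 in *Cdk8* KO (0.955 to 1.24) in the other. The levels of the pair stayed near each other in every library.

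Across the 9 libraries of each multiplex that entered the tests, log2 CPM of the 6 pairs of keratins had Pearson correlations of 0.904 to 0.984 beside *Ccnc* KO and 0.986 to 0.997 beside *Cdk8* KO. These are descriptions, since the libraries share clones and WT samples. Ranked over 13351 genes by the lower of its correlations in the multiplexes, *Krt18* was most like *Krt8* (0.984), followed by *4933402E13Rik* (0.970), *Anxa1* (0.970), *Thbs1* (0.966) and *Tinagl1* (0.966). *Anxa1* encodes a phospholipid-binding protein, *Thbs1* a matrix glycoprotein and *Tinagl1* a matrix protein. The processed pseudogene *Krt8-ps* is 98.6% identical to the *Krt8* transcript over 941 aligned bases, and held 0.0181 to 0.0917 of the CPM of *Krt8* in each library, and the reads of these genes could be split between them.

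The transcription factors did not follow the keratins as a group. *Tfap2c* encodes AP-2 gamma and is also made in pluripotent cells and germ cells. In the *Ccnc* multiplex, *Tfap2c* was at 38.1 and 35.8 CPM (DMSO and ATRi) in WT replicate 1, 49.6 and 59.2 in WT replicate 2, 47.5 and 46.3 in D1, 29.9 and 30.3 in G2, and 36.5 and 37.7 in H5. In the *Cdk8* multiplex, *Tfap2c* was at 38.9 and 35.9 CPM in WT replicate 1, 47.3 and 59.3 in WT replicate 2, 23.8 and 21.6 in B9, 32.8 and 34.7 in C8, and 50.9 and 55.6 in H4. The groups overlapped in both, with fitted log2 differences of -0.09 (SE 0.14, adjusted p = 0.73) in *Ccnc* KO and -0.15 (SE 0.29, adjusted p = 0.81) in *Cdk8* KO by edgeR. The sign changed without clone G2 or WT replicate 2 in *Ccnc* KO and without B9 in *Cdk8* KO.

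*Eomes* encodes a T-box factor of trophoblast stem cells and of the primitive streak. For the libraries of the *Ccnc* multiplex, *Eomes* was at 2.11 and 3.15 CPM in WT replicate 1, 3.08 and 5.11 in WT replicate 2, 5.96 and 5.34 in D1, 5.08 and 5.41 in G2, and 4.14 and 4.05 in H5. The 3 WT libraries of the test lay below all *Ccnc* KO libraries, while WT replicate 2 under ATRi lay among them. The fitted log2 difference was 0.84 (SE 0.17, adjusted p = 0.0039 by edgeR), past the threshold on p but below the 2-fold threshold. For the libraries of the *Cdk8* multiplex, *Eomes* was at 2.37 and 3.01 CPM in WT replicate 1, 3.16 and 5.22 in WT replicate 2, 4.43 and 5.29 in B9, 3.63 and 4.81 in C8, and 3.34 and 4.59 in H4, with a log2 difference of 0.56 (SE 0.15, adjusted p = 0.068). Here H4, the clone with the most keratin RNA, was the lowest of the *Cdk8* KO clones.

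*Gata3* encodes a GATA factor of the trophectoderm and had few reads, from 6 to 42 counts per library. In the *Ccnc* multiplex, *Gata3* was at 0.237 and 0.438 CPM in WT replicate 1, 0.231 and 0.639 in WT replicate 2, 0.326 and 0.450 in D1, 0.378 and 0.627 in G2, and 0.780 and 0.862 in H5. WT and *Ccnc* KO overlapped, with a log2 difference of 0.87 (SE 0.35, adjusted p = 0.12 by edgeR). In the *Cdk8* multiplex, *Gata3* was at 0.206 and 0.151 CPM in WT replicate 1, 0.243 and 0.563 in WT replicate 2, 0.432 and 0.415 in B9, 0.796 and 0.499 in C8, and 1.10 and 0.882 in H4. The *Cdk8* KO libraries lay above the 3 WT libraries of the test, with H4 highest and B9 lowest. *Gata3* rose 3.56-fold in *Cdk8* KO (log2 1.83, SE 0.41, adjusted p = 0.037 by edgeR). With the clone as a random block the call was lost (adjusted p = 0.20 by limma). It was also lost in DMSO libraries alone, with the libraries of each clone summed, without C8 and without WT replicate 2. In these 4 fits 0 members and only 2 to 85 of all genes were called raised. Without H4 the call of *Gata3* held (log2 1.47, adjusted p = 0.037 by edgeR). The same WT libraries gave 21 counts of *Gata3* in one sequencing and 6 in the other for WT replicate 1 under ATRi, which shows the counting error at this level.

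*Elf5* encodes an ETS factor that is silent in mESCs and active in trophoblast stem cells. It had 1, 1, 2 and 0 counts in the WT libraries of the *Ccnc* multiplex (replicate 1 under DMSO and ATRi, then replicate 2), 6 and 8 in D1, 7 and 7 in G2, and 12 and 10 in H5. Summed over the libraries tested, *Ccnc* KO had 50 counts in 6 libraries and WT 4 in 3, a ratio of depth-scaled counts of 6.97 (95% interval 2.56 to 26.6, exact, counting error only). *Elf5* rose in *Ccnc* KO by the test (log2 2.67, SE 0.57, adjusted p = 0.0069 by edgeR), at no more than 0.240 CPM in any library. Only the 12 and 10 counts in H5 let *Elf5* past the filter on low counts. It was thus tested through the group in which it is high, and its call is no separate support. The filter on low counts removed it without clone H5, without WT replicate 1 and with DMSO libraries alone. It was also removed with WT replicate 2 under ATRi included, so the call could not be checked in those settings. In the *Cdk8* multiplex the sums were 29 counts in 6 *Cdk8* KO libraries and 9 in 3 WT libraries, a ratio of 1.42 (interval 0.656 to 3.42). In that sequencing WT replicate 1 under ATRi had 5 counts, and the gene did not pass the filter on low counts. A stretch of 125 bases of an *Elf5* transcript is 96.8% identical to a *Wdr33* transcript.

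*Hand1* encodes a bHLH factor of giant cells and of early mesoderm. Within the *Ccnc* multiplex, *Hand1* was at 4.05 and 3.25 CPM in WT replicate 1, 3.39 and 4.50 in WT replicate 2, 5.40 and 4.05 in D1, 4.67 and 3.76 in G2, and 4.30 and 4.43 in H5. Within the *Cdk8* multiplex, *Hand1* was at 4.08 and 3.09 CPM in WT replicate 1, 2.95 and 4.56 in WT replicate 2, 2.90 and 2.80 in B9, 3.22 and 3.91 in C8, and 5.87 and 5.40 in H4. The groups overlapped in both multiplexes, and H4 lay above all other libraries of its multiplex. The log2 difference was 0.35 (SE 0.12, adjusted p = 0.080) in *Ccnc* KO and 0.25 (SE 0.27, adjusted p = 0.64) in *Cdk8* KO by edgeR, the latter at -0.08 without H4.

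*Cdx2* encodes the homeobox factor that specifies the trophectoderm. In the *Ccnc* multiplex, *Cdx2* was at 0.689 and 0.876 CPM in WT replicate 1, 0.359 and 0.50 in WT replicate 2, 0.386 and 0.703 in D1, 0.621 and 0.650 in G2, and 0.600 and 0.862 in H5. In the *Cdk8* multiplex, *Cdx2* was at 0.701 and 0.955 CPM in WT replicate 1, 0.456 and 0.531 in WT replicate 2, 0.638 and 0.871 in B9, 0.446 and 0.877 in C8, and 0.548 and 0.882 in H4. The knockout libraries lay within or close to the range of the WT libraries in both multiplexes. The log2 difference was -0.09 (SE 0.26, adjusted p = 0.87) in *Ccnc* KO and -0.11 (SE 0.21, adjusted p = 0.81) in *Cdk8* KO by edgeR, and its sign changed in both without WT replicate 1 and in *Ccnc* KO without D1.

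**Figure D3:**
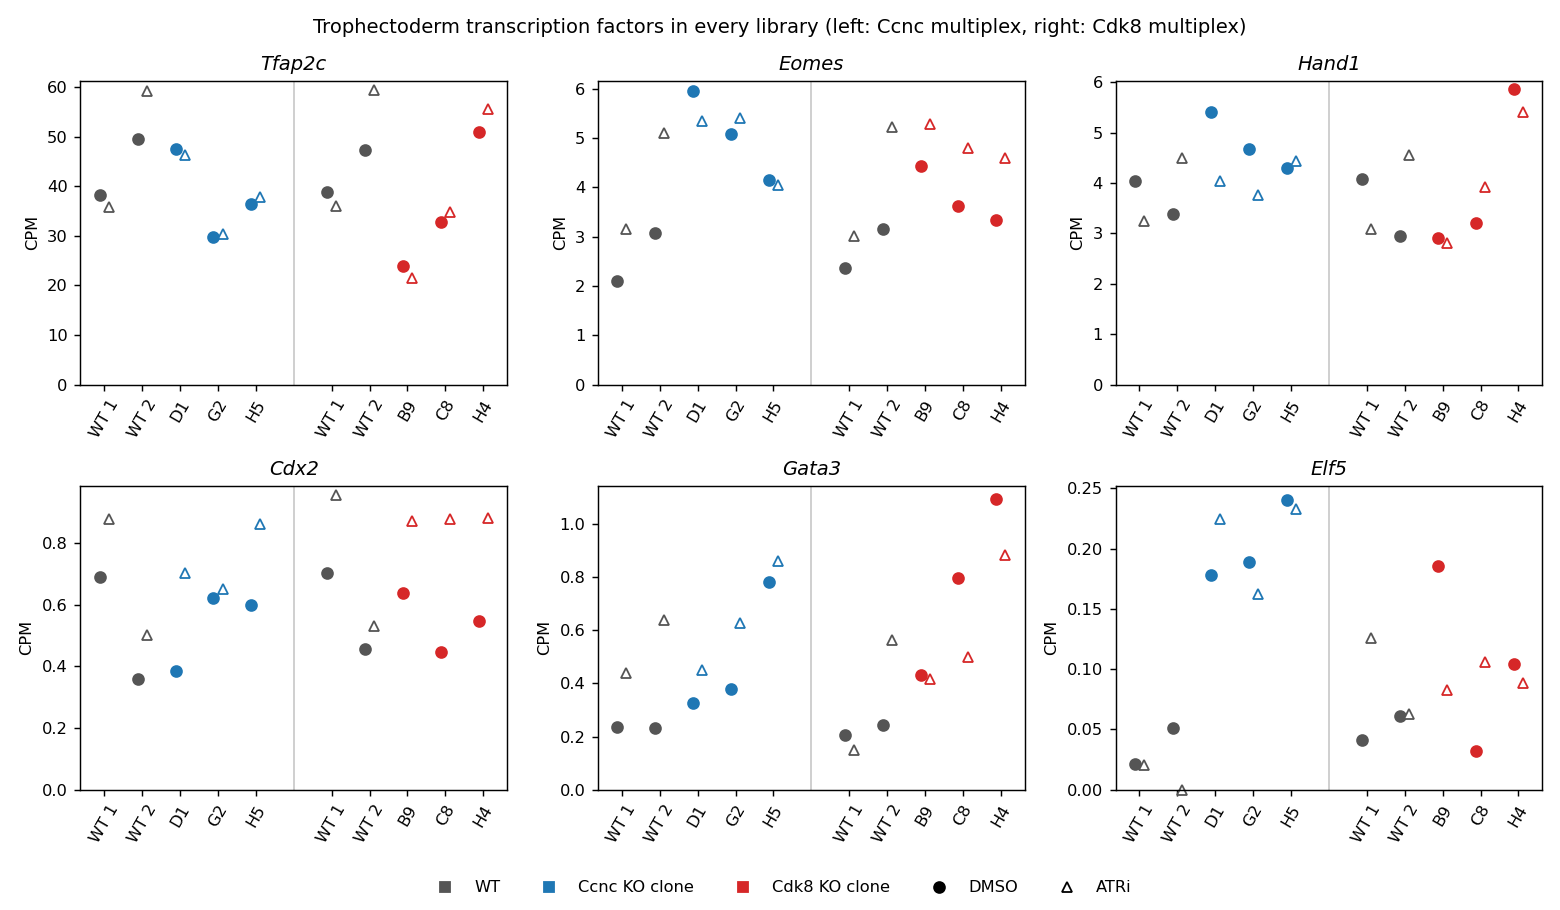
CPM for the 6 transcription factors in every library on linear axes that start at 0, by WT replicate and clone, with WT in grey, *Ccnc* KO in blue and *Cdk8* KO in red, DMSO as filled circles and ATRi as open triangles. *Gata3* is highest in H4 and *Elf5* is higher in all *Ccnc* KO libraries than in the WT libraries beside them, while *Tfap2c*, *Hand1* and *Cdx2* overlap between genotypes.

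As a description over the same 9 libraries, the Pearson correlation of log2 CPM with *Krt8* was 0.855 for *Gata3* beside *Ccnc* KO and 0.937 beside *Cdk8* KO, and 0.203 and 0.00913 for *Cdx2*. For *Elf5* it was 0.929 and 0.141, for *Eomes* 0.630 and 0.435, for *Hand1* 0.510 and 0.774, and for *Tfap2c* -0.230 and 0.396. The genes most like *Gata3*, by the lower of the correlations, were *Ift122* (0.920), *Colec12* (0.898), *Cnn1* (0.870), *Cth* (0.865) and *Thbs1* (0.864), and the genes most like *Cdx2* were *Arl6ip1* (0.880), *Snora31* (0.874), *Ccnb1ip1* (0.837), *Sap18* (0.835) and *Kbtbd2* (0.828). With few counts of *Gata3* and *Cdx2* these values carry much counting error.

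*Ccnc* KO and *Cdk8* KO were then compared with each other through the WT libraries that both multiplexes share. Each WT library entered once per multiplex, as if these were separate replicates. None of the 10 members passed, where 0.00545% of all 18349 genes did, namely *Ccnc* itself. The log2 difference of *Ccnc* KO from *Cdk8* KO was -1.66 for *Krt8* (SE 0.84, adjusted p = 0.998), -1.30 for *Krt18* (SE 0.90), -1.63 for *Krt19* (SE 1.03), -1.27 for *Krt7* (SE 1.31) and 2.21 for *Elf5* (SE 0.78), with unadjusted p-values of 0.061, 0.16, 0.13, 0.34 and 0.010 by edgeR. Without H4 the differences of *Krt18* and *Krt7* changed sign, to 0.14 and 0.38. With all clones kept and the WT libraries summed over the multiplexes, 0 of 10 members passed. In that fit 21 of all 19066 genes were called raised and 1 lowered.

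ATRi moved none of the members past the test. At an adjusted p under 0.05, 0 of 10 members passed in the *Ccnc* multiplex, where 1.11% of all genes did, and 0 of 9 passed beside *Cdk8* KO, where 0.0855% of all genes did. *Cdx2* was higher under ATRi than under DMSO in all 6 knockout clones and in both WT replicates in each multiplex. The log2 difference between ATRi and DMSO for *Cdx2* within cultures was 0.33 and 0.43 in WT replicates 1 and 2 of the *Ccnc* multiplex, 0.79 in D1, 0.06 in G2 and 0.49 in H5, and was 0.42 and 0.20 in the WT replicates of the *Cdk8* multiplex, 0.42 in B9, 0.91 in C8 and 0.64 in H4. The fitted log2 difference for *Cdx2* was 0.54 (SE 0.25, unadjusted p = 0.049, adjusted p = 0.31) and 0.68 (SE 0.19, unadjusted p = 0.0057, adjusted p = 0.23) by edgeR. *Eomes* was higher under ATRi in the WT replicates of both multiplexes, by 0.34 to 0.72 on the log2 scale, and in the 3 *Cdk8* KO clones, by 0.25 to 0.45, while the *Ccnc* KO clones lay between -0.16 and 0.09. With the clone or replicate as a block, *Eomes* passed in the *Cdk8* multiplex (log2 0.36, SE 0.09, adjusted p = 0.024 by edgeR), the only member to do so, where 11.3% of all genes passed in that fit.

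**Figure D4:**
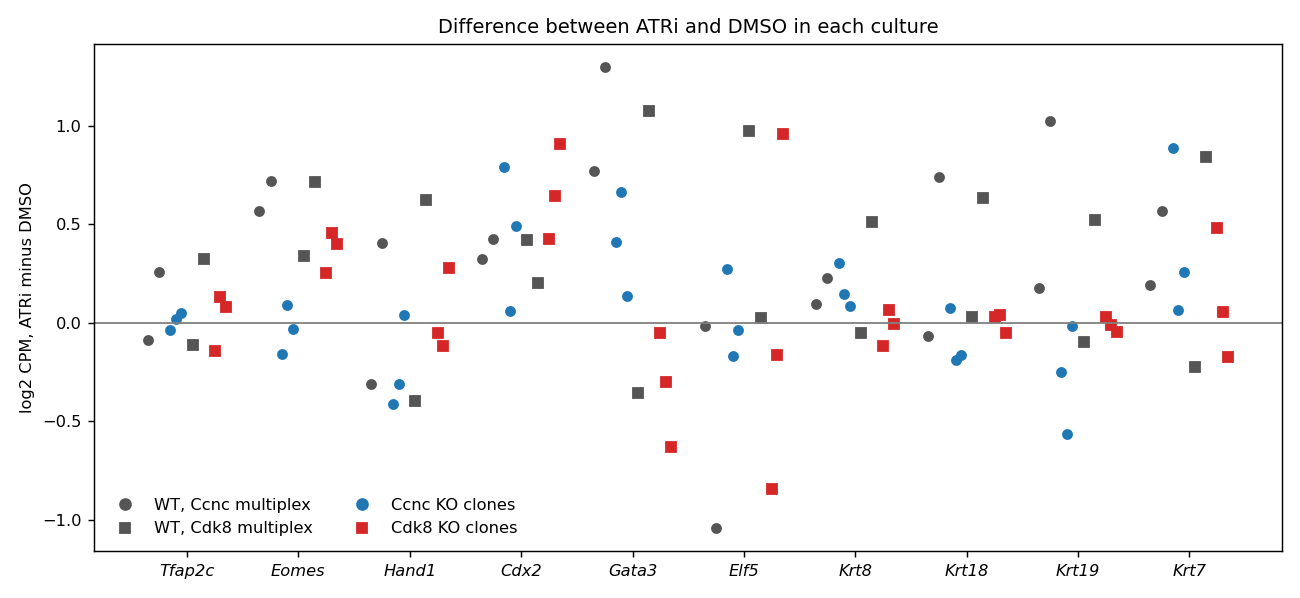
Difference of log2 CPM between ATRi and DMSO (vertical axis) within each WT replicate and clone, by gene, with WT in grey, *Ccnc* KO in blue and *Cdk8* KO in red, circles for the *Ccnc* multiplex and squares for the *Cdk8* multiplex. All points for *Cdx2* lie above 0, and the keratins lie close to 0 in the *Cdk8* KO clones except for *Krt7*.

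Within the *Cdk8* KO clones *Krt8* differed between treatments by -0.12 to 0.07 on the log2 scale, *Krt18* by -0.05 to 0.04 and *Krt19* by -0.04 to 0.03, so that these clones' levels were nearly the same in their 2 libraries. Larger differences were seen elsewhere, at 0.48 for *Krt7* in B9, 0.89 for *Krt7* in D1 and -0.56 for *Krt19* in G2. In WT replicate 2 of the *Ccnc* multiplex the difference was 0.74 for *Krt18* and 1.03 for *Krt19*. Whether the response to ATRi depended on genotype was tested as an interaction. None of the members passed in either multiplex, where 0% of all genes did, with 395 and 255 genes at an unadjusted p under 0.05 by edgeR. With 1 WT library under ATRi in these fits the standard errors were wide, at 0.46 for *Krt8* beside *Ccnc* KO and 1.67 beside *Cdk8* KO.

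The other genes of the pathway come from lists of known trophoblast, keratin and junction genes. For these and the lists after them, the shares called over all genes tested stand beside each count. They were 1.62% raised and 0.318% lowered in *Ccnc* KO, and 0.908% raised and 0.144% lowered in *Cdk8* KO. In lists this short, 0 calls lie near these shares. Of 24 other trophoblast regulators and markers, 19 were tested in each multiplex. In *Ccnc* KO 2 were called raised and 0 lowered, and in *Cdk8* KO 1 was called raised and 0 lowered. The genes called were *Plet1* in both and *Wnt7b* in *Ccnc* KO, named after their values were seen. *Plet1*, a surface marker of early trophoblast, rose in *Ccnc* KO (log2 2.25, SE 0.17, adjusted p = 1.6e-06) and in *Cdk8* KO (log2 1.85, SE 0.36, adjusted p = 0.023). *Wnt7b*, a WNT ligand, rose in *Ccnc* KO (log2 1.01, SE 0.15, adjusted p = 0.00065). The most abundant genes of the list, *Peg10* and *Sox15*, were at log2 differences of -0.30 and 0.26 in *Ccnc* KO and 0.44 and -0.12 in *Cdk8* KO and were not called. The summed level of the list was 849 and 942 CPM in H4 under DMSO and ATRi, 315 to 453 CPM in B9 and C8, and 403 to 456 CPM in the WT libraries beside them. *Peg10*, an imprinted gene needed in the placenta, reached 745 CPM in the highest *Cdk8* KO library, beside a WT mean of 288 CPM. H4 stood apart in this sum. Over the 19 genes tested, its median log2 ratio to WT under DMSO was 0.39, beside 4.33 for the 4 keratins. The list's median log2 difference was 0.12 in both knockouts, beside 0.0032 in *Ccnc* KO and 0.0086 in *Cdk8* KO over all genes tested. *Syna*, *Synb*, *Prl2c2*, *Prl3d1*, *Tpbpa* and *Ctsq*, markers of differentiated placental cells, were under 0.5 CPM in every library, and 5 of the 24 genes had 0 counts in all libraries of each multiplex.

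Of 16 other keratins, 11 were tested beside *Ccnc* KO and 10 beside *Cdk8* KO. Only *Krt14*, a keratin of basal epithelial cells named after its values were seen, was called, in *Ccnc* KO (log2 1.75, SE 0.46, adjusted p = 0.022, mean 0.552 CPM), and its difference in *Cdk8* KO was 3.42 (SE 1.02, adjusted p = 0.090). *Krt42* and *Krt17*, the most abundant of the list, were at -0.25 and -0.15 in *Ccnc* KO and -0.46 and 0.36 in *Cdk8* KO and were not called. The median log2 difference of the list was 0.68 in *Ccnc* KO and 0.41 in *Cdk8* KO. The summed level of these 16 keratins lay between 38.0 and 54.0 CPM in *Ccnc* KO and between 46.0 and 48.8 CPM in the WT libraries beside them, and 9 of the 11 tested in *Ccnc* KO had a positive difference, as did 9 of the 10 in *Cdk8* KO.

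Of 12 desmosome and keratin linker genes, 11 were tested in each multiplex and 0 were called in either knockout, with median log2 differences of 0.04 and 0.30. *Jup*, which encodes plakoglobin, was at -0.17 in *Ccnc* KO and -0.08 in *Cdk8* KO, and *Pkp2*, which encodes plakophilin 2, at 0.32 and 0.08. Of 15 tight and adherens junction genes, 14 were tested, and *Cldn7* (log2 1.11, SE 0.13, adjusted p = 0.0001) and *Cldn6* (log2 1.03, SE 0.11, adjusted p = 4.5e-05), claudins of epithelial tight junctions named after their values were seen, rose in *Ccnc* KO. None of the 14 was called in *Cdk8* KO. *Cdh1*, which encodes E-cadherin, was at 0.15 and 0.26 in the knockouts and *Ctnna1*, which encodes alpha-catenin, at 0.13 in both, and neither was called. The list medians were 0.14 and 0.25.

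Markers of the primitive endoderm rose in both knockouts. Of 18 primitive endoderm markers, 15 were tested in the *Ccnc* multiplex and 9 were called raised, and 16 were tested in the *Cdk8* multiplex and 12 were called raised, with 0 lowered in either. *Dab2*, an endocytic adaptor, rose by 2.79 on the log2 scale in *Ccnc* KO and by 3.44 in *Cdk8* KO, *Cubn*, an endocytic receptor, with 2.60 and 3.51, *Col4a2*, a basement membrane collagen, with 1.88 and 2.70, and *Sox7*, an endoderm factor, with 2.04 and 2.18. The summed level of the list was 486 to 584 CPM in WT and 833 to 1073 CPM in *Ccnc* KO in the *Ccnc* multiplex, and 488 to 572 CPM in WT and 1122 to 1554 CPM in *Cdk8* KO in the other. *Afp*, *Apoa1* and *Ttr* were under 0.5 CPM in every library. Their part in the keratin result was not tested. The summed level under DMSO and ATRi was 1384 and 1554 CPM in C8, 1176 and 1204 in B9, and 1122 and 1178 in H4, an order of clones that differs from that of the keratins.

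Of 12 actin and SRF target genes, 11 were tested in the *Ccnc* multiplex and 5 were called raised, and 12 were tested in the *Cdk8* multiplex and 0 were called. Those called were *Acta2* (log2 3.72), *Tagln* (1.74), *Cnn1* (1.40), *Myl9* (1.28) and *Cald1* (1.01), which encode contractile and actin-binding proteins and are named after their values were seen. *Flna* and *Vcl*, the most abundant of the list, were at 0.04 and 0.16 in *Ccnc* KO and 0.25 and 0.43 in *Cdk8* KO and were not called. The summed level was 2331 and 2555 CPM in H4 under DMSO and ATRi, 1228 and 1398 in C8, 1091 and 1121 in B9, and 1010 to 1181 in the WT libraries beside them, the same order of clones as for the keratins. In the *Ccnc* multiplex it was 1058 to 1365 CPM in the knockout and 1016 to 1200 in WT. The part of this list in the keratin result was not tested.

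Of 10 fibroblast markers, 5 were tested beside *Ccnc* KO and 8 beside *Cdk8* KO, and 0 were called in either. Their summed level was 24.5 and 27.5 CPM in H4 under DMSO and ATRi, 10.1 to 12.1 CPM in B9 and C8, 6.63 to 8.53 CPM in the WT libraries beside them, 9.10 to 15.1 CPM in *Ccnc* KO and 7.34 to 8.73 CPM in the WT libraries of that multiplex. *Twist2*, *Postn*, *Dcn* and *Lum* were under 0.5 CPM in every library. *Thy1* and *Pdgfrb*, the most abundant, were at 0.59 and 0.00 in *Ccnc* KO and 0.59 and 0.28 in *Cdk8* KO and were not called. Whether fibroblast RNA had a part in the keratin result of H4 was not tested.

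Of 10 pluripotency markers, 10 were tested in each multiplex and 0 were called, with median log2 differences of -0.19 and -0.28. *Pou5f1* was at -0.09 in *Ccnc* KO and -0.18 in *Cdk8* KO, and *Esrrb* at -0.32 and -0.49. *Pou5f1*, which defines the labelled cell type, had a mean of 1402 CPM in WT of the *Ccnc* multiplex. The summed level was 4451 to 5027 CPM in *Ccnc* KO and 5045 to 5371 in WT, and 3714 to 4773 CPM in *Cdk8* KO and 4931 to 5277 in WT. Of 12 primitive streak and mesoderm markers, 10 and 11 were tested and 0 were called, at summed levels of 7.90 to 11.1 CPM in the knockouts and 8.29 to 10.9 CPM in WT. *Mesp1*, *Foxf1*, *Lhx1*, *Msgn1*, *Gsc* and *Fgf8* were under 0.5 CPM in every library, and *Tbx20* and *Kdr* were at 0.31 and -0.27 in *Ccnc* KO and 0.29 and -0.40 in *Cdk8* KO. Of 10 neural markers, 7 and 8 were tested, with 0 raised and 2 lowered in *Ccnc* KO and 0 called in *Cdk8* KO. *Pax6* (log2 -1.35), named after its values were seen, was among those that fell. The summed neural level was 107 to 132 CPM in *Ccnc* KO and 142 to 157 CPM in WT, and 125 to 171 CPM in *Cdk8* KO and 138 to 151 CPM in WT. *Tubb3* and *Nes* were at -0.22 and -0.21 in *Ccnc* KO and -0.17 and 0.88 in *Cdk8* KO. In such bulk RNA, fewer cells of a type and less RNA per cell cannot be told apart.

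**Figure D5:**
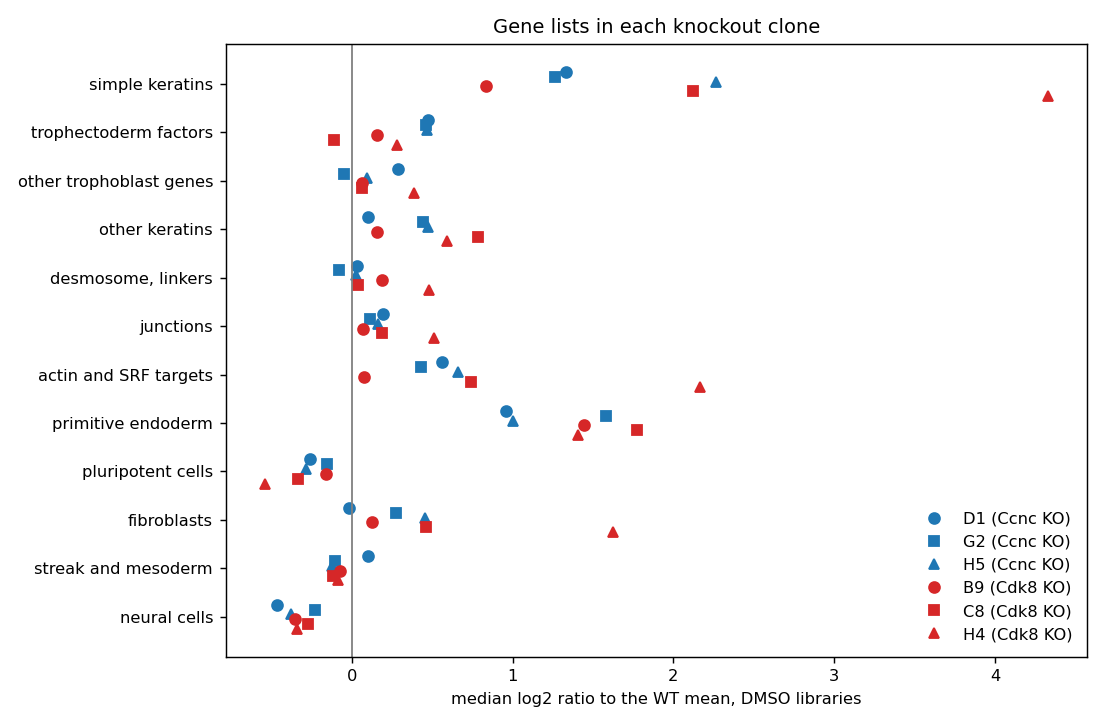
Median log2 ratio to the mean of the WT libraries under DMSO (horizontal axis) for each gene list (vertical axis), for the clones of *Ccnc* KO (blue) and *Cdk8* KO (red). H4 stands apart in the simple keratins, at 4.33, in the actin and SRF targets, at 2.16, and in the fibroblast markers, at 1.62, but not in the primitive endoderm list, at 1.41.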

How the data were processed

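RNA was poly(A)-selected and sequenced single-end from mESCs, as 20 libraries on 2 lanes each, with the WT libraries counted once per multiplex. Per the methods of the study, the authors trimmed reads with Trimmomatic 0.38, aligned them with HISAT2 2.1.0 to GRCm38.p6 and deposited strand-specific counts per gene from featureCounts 2.0.1, ignoring duplicates. The methods name no step that marks duplicates, so it is not known whether any reads were dropped. Dropping duplicates can lower the counts of abundant transcripts. The deposited rlog tables were not used. Lane counts were summed per library, giving 30899823 to 67274049 reads on genes (median 41972557).

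Each multiplex was fitted with edgeR 4.0.16 in R 4.3.3 (TMM, filterByExpr, quasi-likelihood test) on genotype and treatment, leaving out WT replicate 2 under ATRi as the authors did. Knockout calls needed an adjusted p under 0.05 and a fold above 2 or below 0.5, and calls for ATRi and the interaction an adjusted p under 0.05. Log2 CPM used a prior count of 2. Ratios of counts have exact intervals that cover counting error only. The alternatives were RLE scaling, no filter, DESeq2 1.42.0, each clone or WT replicate left out, all WT libraries, DMSO alone, libraries of a clone summed, and the clone as a block, fixed or random (limma 3.58.1). Libraries of the same clone come from the same cell line and are paired by it. Their deviations from the group means correlated at 0.21 (D1), 0.03 (G2), 0.22 (H5), 0.61 (B9), 0.68 (H4) and 0.21 (C8). On simulated counts with 200 changed genes, the adjusted p alone recovered 200 for *Ccnc* KO (18577 genes) and 198 for *Cdk8* KO (18721 genes). For the interaction it recovered 172 beside *Ccnc* KO and 146 beside *Cdk8* KO. Genes with few counts were not among those changed, and the simulated clones had no differences of their own. Recovery for members with few counts, or where clones differ, was not tested.

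Genes named are the members, the targeted genes and, from each other list, up to 4 genes called in both knockouts with the largest change or otherwise the 2 most abundant, with exceptions stated. The members and lists were chosen with earlier results of these data known. The values of a neural marker are not reported here.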

Additional observations from a re-analysis of the deposited data

Results flagged for a closer look

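*Gata3* moved in opposite directions under ATRi in the clones of the knockouts. The mean log2 difference between ATRi and DMSO was 0.40 over the *Ccnc* KO clones, where all 3 were higher under ATRi, and -0.33 over the *Cdk8* KO clones, where all 3 were lower. The difference between the knockouts was not tested. *Gata3* had 11 to 42 counts in these libraries, and the same WT libraries, sequenced in both multiplexes, gave 0.77 and -0.36 for WT replicate 1 and 1.30 and 1.07 for WT replicate 2.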

How the results depend on the processing

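The number of members called depended on the setting. In *Ccnc* KO the count was 5, with 3 from DMSO libraries alone, where 136 of all 17067 genes were called raised. It was 4 or 5 when a clone or WT replicate 2 was left out, where 257 to 301 genes were. In *Cdk8* KO the count was 1. It was 5 without the filter on low counts, where 305 of all 29765 genes were called raised. It was 5 by DESeq2 (295 of 17097 genes) and 2 with all WT libraries (245 of 17863). The count was 0 with DMSO libraries alone (3 of 16904 genes) and with the replicate block as a random effect (50 of 18721). It was also 0 with the libraries of each clone summed (2 of 19123). Among the samples left out, the count was 5 without B9 (398 of 18327 genes) or H4 (210 of 18586). It was 0 without C8 (76 of 18507) or WT replicate 2 (85 of 18695). Without WT replicate 1 a single WT library is left, and that count is not given for either knockout. The replicate block raised the ATRi count in the *Cdk8* multiplex from 0 to 1, and changed no other count for ATRi or the interaction. The interaction without WT replicate 1 could not be fitted in either multiplex.

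Of 328 values of single members under the alternatives, 282 kept their direction and side of the threshold, 12 lost a call, 19 gained one and 15 changed sign. *Cdx2* in *Ccnc* KO (-0.09) became 0.056 with all WT libraries, 0.037 in DMSO alone and 0.060 with summed libraries, and ran from -0.29 to 0.59 over the samples left out. *Cdx2* in *Cdk8* KO (-0.11) became 0.072 with all WT libraries and 0.16 with summed libraries, and ran from -0.23 to 0.25. Over the samples left out, *Tfap2c* ran from -0.38 to 0.056 in *Ccnc* KO and from -0.51 to 0.10 in *Cdk8* KO, *Hand1* in *Cdk8* KO from -0.078 to 0.45, *Eomes* under ATRi in the *Ccnc* multiplex from -0.024 to 0.13, and the difference between the knockouts from -1.77 to 0.14 for *Krt18* and from -1.93 to 0.38 for *Krt7*. The causes were not tested.

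Low counts limit *Elf5*, *Gata3*, *Cdx2* and *Krt7*: between the sequencings of the same WT libraries, members differed by -1.30 to 1.31 on the log2 scale, and *Krt8*, *Krt18* and *Krt19* by -0.30 to 0.38. Each knockout rests on 3 clones and each WT group on 2 replicates, and clone and genotype cannot be told apart within a clone.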
